A study of Mus musculus with 96 samples.

Results

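The heat shock chaperone genes described here are 10 genes chosen by symbol: Hspa1a, Hspa1b, Hsph1, Dnajb1, Hspb1, Hsp90aa1, Hspa8, Hspd1, Hspe1 and Bag3, out of 22709 genes in the deposited table. All 10 passed the filter on low values in both tissues. The libraries were made from polyadenylated RNA of mouse hippocampus (HPC) and prefrontal cortex (PFC), 48 libraries per tissue. The treatments were maternal immune activation (MIA) or saline, and injections of PLX5622 (PLX), an inhibitor of the receptor CSF1R on which microglia depend, or control. The groups in each tissue were MIA PLX females (n = 6), MIA control females (n = 7), MIA PLX males (n = 6), MIA control males (n = 5), saline PLX females, saline control females, saline PLX males and saline control males (n = 6 each). The labels give no strain, age, litter, agent of immune activation, dose or timing. They number the libraries of a group but do not say that they came from separate animals, so p-values measure the spread between libraries, which may be partly technical. Littermates would not be independent replicates of a treatment given to the dam.

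Heat shock proteins bind unfolded polypeptides and help them to fold, or pass them on to be degraded. Under proteotoxic stress the transcription factor HSF1 leaves its complex with chaperones, forms trimers and binds heat shock elements in the promoters of these genes. These elements are inverted repeats of the letters GAA. In unstressed brain the constitutive forms are abundant in neurons, and the inducible HSP70 genes are low. Within the list, Hspa1a and Hspa1b encode inducible HSP70, Hspa8 encodes its constitutive relative HSC70, and Dnajb1 encodes a J protein that delivers clients to HSP70. Hsph1 encodes HSP110, and Bag3 a co-chaperone that ties HSP70 to autophagy; both promote nucleotide exchange on HSP70. Hsp90aa1 encodes the inducible cytosolic HSP90, and Hspb1 a small heat shock protein that holds unfolded proteins. Hspd1 and Hspe1 encode HSP60 and HSP10, which form the folding chamber of the mitochondrial matrix. These last genes belong to the heat shock response, but their proteins are not cytosolic.

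Values are the deposited signal, which is reads per gene divided by a factor for each library and not by gene length. Libraries held 22234569 to 26689351 reads in HPC and 22752437 to 25928320 reads in PFC. Marker sums matched the tissue labels: 6 hippocampal markers summed to 15719 to 21026 in HPC libraries and 4886 to 8239 in PFC libraries, and 6 cortical markers to 3249 to 4903 in HPC and 9824 to 13403 in PFC. Of other tissue, 5 choroid plexus markers ran from 793 to 96185 in HPC libraries and from 177 to 511 in PFC libraries, and 5 markers of striatal projection neurons from 1147 to 1993 in HPC and from 2086 to 19230 in PFC. Csf1r, the target of the inhibitor, was lower in PLX libraries than in control libraries in HPC (log2 difference -0.11 ± 0.03 SE, adjusted p = 0.00859) and PFC (-0.20 ± 0.03, adjusted p = 0.000229). Some libraries had a high share of reads in ribosomal protein and respiratory chain genes (319 symbols), and are called high-share libraries here. Parted at the widest gap of that share, 1.27% to 1.46% in HPC and 1.22% to 1.34% in PFC, they were 14 of 48 HPC libraries and 16 of 48 PFC libraries. They fell unevenly over the inhibitor groups, with 2 of 24 PLX and 12 of 24 control libraries in HPC, and 2 of 24 PLX and 14 of 24 control libraries in PFC. Inhibitor results are therefore also given with this state as a term in the fit and with the high-share libraries left out. Whether the inhibitor itself changes this share was not tested, and these 2 fits could remove such an effect along with the state. The Csf1r differences above are from the fit without that term. In HPC the Csf1r call was lost when the high-share libraries were left out.

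The promoters are shown here because the levels of Hspa1a with Hspa1b and of Hspd1 with Hspe1 were the closest pairs within groups. For Hspd1 with Hspe1 this did not hold once the high-share libraries were centred as well. RefSeq windows of 250 bases before to 50 after the gene start (GRCm38.p6, not the build the reads were aligned to) were matched for 8 of the 10 genes, all but Hsp90aa1 and Hspa8. Capitals mark the searched motif, which was a pair of facing units: GAA, any 2 bases and TTC, or TTC, any 2 bases and GAA. Each form is its own reverse complement, so both strands were covered, and matches may overlap.
Hspa1a (chr17:34972107-34972406, minus strand): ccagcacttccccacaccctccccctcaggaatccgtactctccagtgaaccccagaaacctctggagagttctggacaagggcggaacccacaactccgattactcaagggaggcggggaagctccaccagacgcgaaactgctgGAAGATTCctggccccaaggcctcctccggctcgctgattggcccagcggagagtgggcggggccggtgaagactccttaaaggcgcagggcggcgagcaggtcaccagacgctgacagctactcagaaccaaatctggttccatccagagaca
Hspa1b (chr17:34959189-34959488, minus strand): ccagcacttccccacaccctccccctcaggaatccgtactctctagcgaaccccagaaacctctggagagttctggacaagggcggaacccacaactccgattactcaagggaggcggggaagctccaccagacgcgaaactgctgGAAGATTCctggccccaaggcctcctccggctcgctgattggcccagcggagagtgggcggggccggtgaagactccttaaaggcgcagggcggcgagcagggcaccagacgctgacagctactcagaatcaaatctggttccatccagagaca
Hspe1 (chr1:55087898-55088197, plus strand): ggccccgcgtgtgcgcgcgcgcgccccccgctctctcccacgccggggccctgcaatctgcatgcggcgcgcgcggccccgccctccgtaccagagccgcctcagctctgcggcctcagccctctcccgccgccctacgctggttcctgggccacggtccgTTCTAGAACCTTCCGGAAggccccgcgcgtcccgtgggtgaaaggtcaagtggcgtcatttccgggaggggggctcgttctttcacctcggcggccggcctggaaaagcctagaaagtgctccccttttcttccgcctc
Hsph1 (chr5:149636287-149636586, minus strand): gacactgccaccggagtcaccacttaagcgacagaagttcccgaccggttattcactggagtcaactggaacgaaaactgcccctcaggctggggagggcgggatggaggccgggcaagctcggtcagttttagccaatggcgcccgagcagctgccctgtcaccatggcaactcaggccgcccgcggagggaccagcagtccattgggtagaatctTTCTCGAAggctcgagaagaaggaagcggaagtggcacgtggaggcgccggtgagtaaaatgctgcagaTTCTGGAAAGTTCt
The Hspa1a and Hspa1b windows had the same letters at 296 of 300 positions. Counted from 1 at the 5′ end, with the Hspa1a base first, they differed by C44T, T47C, T249G and C276T, and the motif 104 bases before the gene start was in both. Hspe1 lies head to head with Hspd1, so its window is also part of the Hspd1 promoter: 285 of the 300 bases of a window of Hspd1 are the reverse complement of the same stretch. That shared stretch carries 3 overlapping motifs, which start 89, 84 and 79 bases before the Hspe1 gene start. In Hsph1 the motifs start 33 bases before the gene start and 36 and 41 bases after it. A motif of this kind was present in at least 1 window of 7 of the 8 genes (all but Dnajb1), and in 17.0% of all 27025 genes with a window. The longer form with 3 units, in which any 2 bases and another GAA or TTC in turn follow, was searched on both strands and was present in Hsph1, Hspd1 and Hspe1, which are 3 of the 8, and in 0.662% of all genes. These are matches of letters, not measured binding.

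Basal levels spanned a wide range, with Hspa8, Hsp90aa1 and Hsph1 at the top. Per kilobase of merged exons (GENCODE gene models), the HPC medians of the signal were 4739 for Hspa8, 2954 for Hsp90aa1, 2240 for Hsph1, 1093 for Hspd1, 623 for Hspe1, 382 for Dnajb1, 100.4 for Hspa1b, 89.1 for Bag3, 48.9 for Hspa1a and 29.6 for Hspb1. PFC medians per kilobase kept this order, from 5033 for Hspa8 to 32.0 for Hspb1, with 498 for Hspe1 and 495 for Dnajb1 lying closest together. The library ranges of neighbours in this order overlapped for Hsp90aa1 and Hsph1 in HPC (2425 to 3712 and 1694 to 2913 per kilobase) and for Hspa1b and Bag3 (63.8 to 232.9 and 57.7 to 110.6), while those of Hsph1 and Hspd1 did not (1694 to 2913 and 940.0 to 1372). Hspb1 and the inducible HSP70 genes varied most. The coefficient of variation over the 48 libraries of a tissue was 38.1% in HPC and 38.0% in PFC for Hspb1, 32.9% and 33.0% for Hspa1b, and 33.3% and 29.3% for Hspa1a, against 8.54% and 8.004% for Hsp90aa1. Bag3, whose level per kilobase lay between those of Hspa1b and Hspa1a, had 11.6% and 14.7%, below Hspe1 (17.4% and 17.2%) and Dnajb1 (15.5% and 15.2%). Hspb1 rested on 11 to 80 reads per library, where counting error is large, while Hspa1b rested on 146 to 629 reads.

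**Figure D1:**
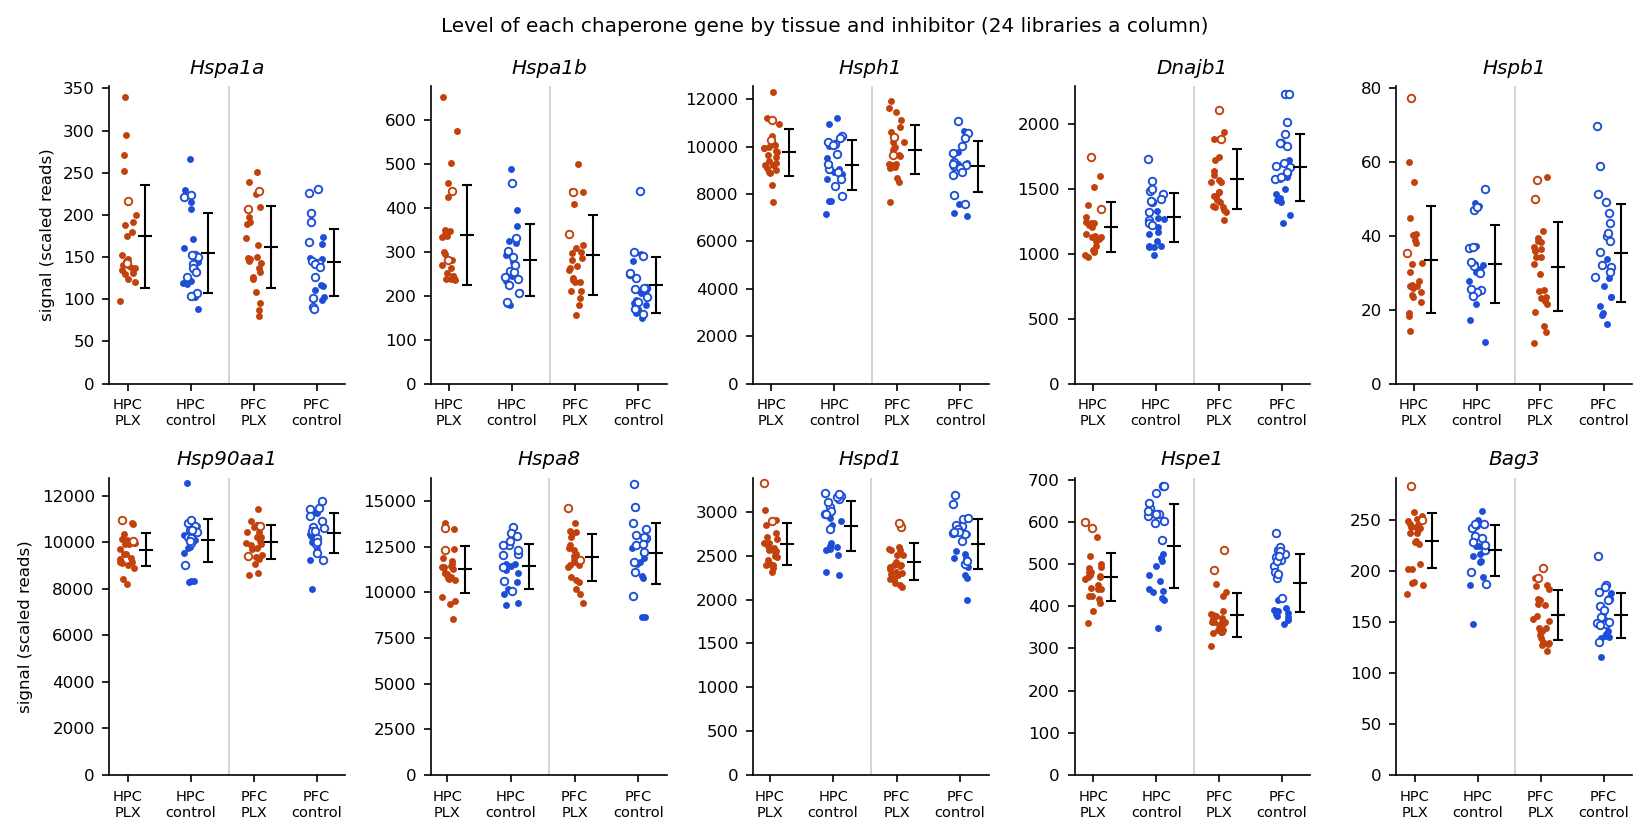
Signal of the 10 genes in each library (y axis, scaled reads, from 0), by tissue and inhibitor (24 libraries per column; bars are mean ± SD; open circles are high-share libraries). Bag3 was lower and Dnajb1 higher in PFC columns than in HPC columns, and the open circles of Hspe1 lay mostly above the filled ones.

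Between the tissues, Bag3, Hspe1, Hspa1b and Hspd1 were higher in HPC than in PFC, and Dnajb1 and Hspa8 were lower. These 6 calls (limma, adjusted p under 0.05) were 4 higher and 2 lower, in a comparison where 35.3% of the 20620 genes tested were higher and 30.6% lower. The median difference of the 10 genes was 0.05 (log2), against 0.02 over all genes tested. The deposited values were scaled within each tissue, and rescaling all libraries together left these 6 calls in place. In bulk tissue, fewer cells of a type and less RNA per cell cannot be told apart.

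Bag3 had a signal of 148 to 283 in HPC libraries (median 228) and 116 to 214 in PFC libraries (median 153). The tissues overlapped, but the HPC library was the higher one for 48 of 48 labels that occur in both tissues (log2 difference 0.53 ± 0.04 SE, 1.44-fold). Dnajb1 had 972 to 1745 in HPC (median 1223) and 1238 to 2230 in PFC (median 1585), and its PFC library was the higher one for 48 of 48 labels (-0.38 ± 0.04, 0.768-fold). Both co-chaperones act on HSP70, yet they differed between the tissues in opposite directions. Each did so for 48 of 48 labels, although the library ranges overlapped.

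Hspe1 had 348 to 686 in HPC (median 482) and 306 to 573 in PFC (median 385), and was higher in HPC for 46 of 48 labels (0.27 ± 0.04, 1.21-fold). Its partner Hspd1 had 2278 to 3324 in HPC (median 2648) and 1995 to 3187 in PFC (median 2491), and was higher in HPC for 45 of 48 labels, by 1.08-fold (0.11 ± 0.03, adjusted p = 0.000448). Hspa1b had 179 to 653 in HPC (median 281) and 150 to 499.5 in PFC (median 238), and was higher in HPC for 40 of 48 labels, by 1.21-fold (0.27 ± 0.08, adjusted p = 0.00269). Its near copy Hspa1a differed by 0.11 ± 0.09 (adjusted p = 0.271) and was higher in HPC for 29 of 48 labels. The medians of Hspa1a were 145.1 in both tissues.

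Hspa8 was lower in HPC by a small margin (median 11346 in HPC and 12048 in PFC; -0.08 ± 0.04, adjusted p = 0.0360). This call was lost with the term for the high-share libraries (adjusted p = 0.0965), without them (-0.05, adjusted p = 0.327), and without any 1 of the labels MIA PLX F 02, saline PLX F 03, saline control F 01 and saline control M 02 (adjusted p = 0.0510 to 0.0570). Hsp90aa1 was at -0.05 ± 0.02 (adjusted p = 0.0700) and was called without MIA control F 03 (adjusted p = 0.0385) or saline control M 06 (0.0498). The fit as designed does not pair libraries by label. Hsp90aa1 was also called when the difference was taken within each label (the replicate block) and with TMM rescaling. Like Hspa8, it was higher in PFC for 36 of 48 labels. Hsph1 (-0.00 ± 0.03) and Hspb1 (-0.01 ± 0.11) were the members with the smallest differences. The calls of Bag3, Dnajb1, Hspe1, Hspd1 and Hspa1b held in every alternative run.

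**Figure D2:**
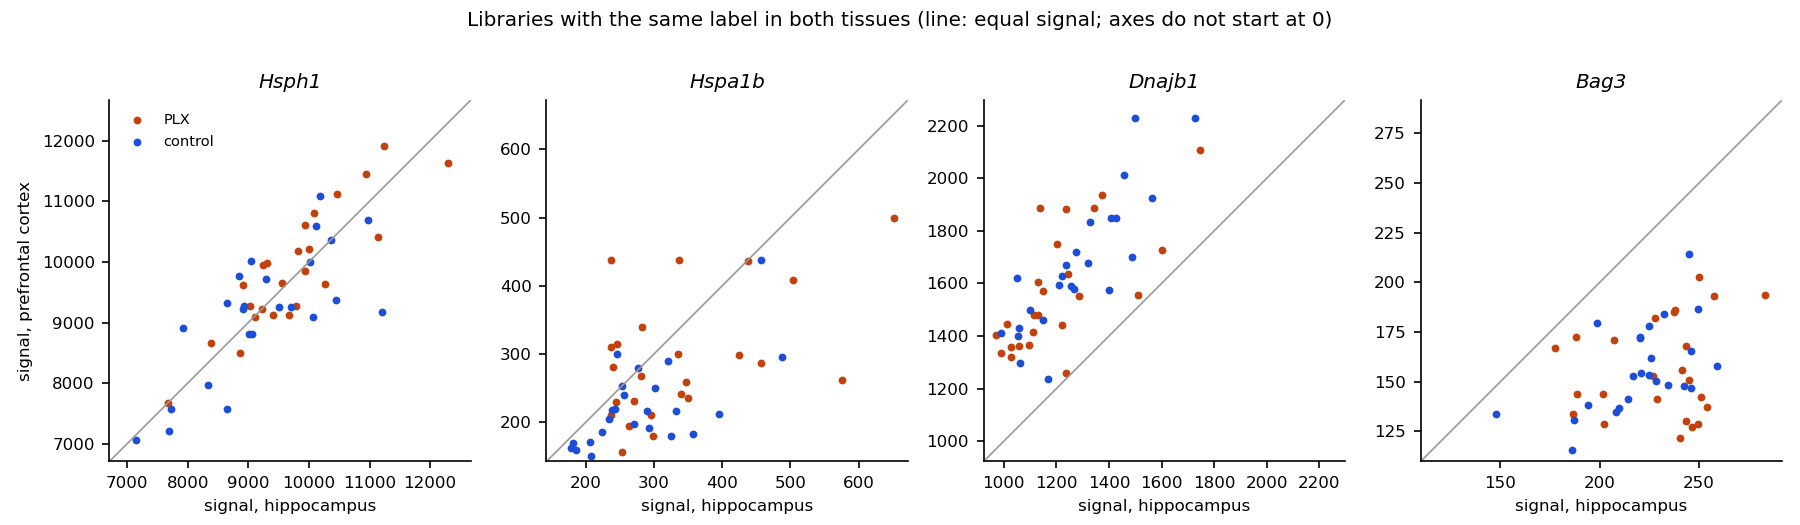
Signal of Hsph1, Hspa1b, Dnajb1 and Bag3 in libraries that carry the same label in HPC (x axis) and PFC (y axis), both in scaled reads, 48 labels a panel; the line marks equal signal and the axes do not start at 0. All Dnajb1 points lay above the line and all Bag3 points below it, while Hsph1 points lay along it.

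Libraries with the same label went together across tissues for most of these genes. The labels do not say whether a shared number marks 1 animal, and 14 labels were high-share in both HPC and PFC, so these correlations are a description. Over 48 labels, with log2 values centred within each group, Pearson's r between tissues was 0.84 for Hspd1, 0.83 for Hsph1, 0.81 for Hspa8, 0.77 for Hspe1, 0.74 for Dnajb1 and 0.70 for Hsp90aa1, and ran from 0.39 to 0.58 for Bag3, Hspa1a, Hspb1 and Hspa1b. The median over all 19366 genes was 0.38. Over the 32 labels with no high-share library, r was 0.91 for Hsph1, 0.76 for Hsp90aa1 and 0.75 for Hspa8, against a median of 0.17 over all genes, while Hspe1 was at 0.20 and Bag3 at 0.09. Thus Hsph1 varied between labels in the same way in both tissues whether or not these libraries were counted, and Hspe1 did so when they were.

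The inhibitor comparison, PLX minus control averaged over sex and prenatal treatment, gave lower levels of the mitochondrial chaperonin genes in both tissues and a higher level of Hspa1b in PFC. In HPC 0 of the 10 genes were called higher and 2 lower (Hspd1 and Hspe1), where 20.8% of 19938 genes were called higher and 19.2% lower. In PFC 1 was called higher (Hspa1b) and 2 lower (Hspd1 and Hspe1), where 19.7% of 19841 genes were called higher and 18.1% lower. These counts are near the background of the same comparison, and are no result about the 10 genes as a list. The median of the 10 differences was -0.01 in HPC and -0.04 in PFC, against -0.00 over all genes in each tissue. With a term for the high-share libraries, or without those libraries, 0 of the 10 genes were called in either tissue. The term left 0.376% of all genes called in HPC and 0.242% in PFC, and leaving the libraries out 0.0457% and 0.302%.

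Hspe1 had 360.0 to 601 in PLX libraries (median 470.0) and 348 to 686 in control libraries (median 540.3) in HPC (-0.19 ± 0.07 SE, 0.875-fold, adjusted p = 0.0199). In PFC it had 306 to 534 in PLX libraries (median 363) and 358 to 573 in control libraries (median 472; -0.26 ± 0.06, 0.834-fold, adjusted p = 0.00151). The groups overlapped in both tissues. Among control libraries the high-share ones lay above the others, by a narrow margin in PFC. The 12 HPC control libraries of high share had 557 to 686, and the 12 other control libraries 348 to 524, beside 360.0 to 563 in the 22 other PLX libraries. In PFC the 14 control high-share libraries had 420.5 to 573, and the 10 other control libraries 358 to 415, beside 306 to 452 in the 22 other PLX libraries. With the term the PLX difference of Hspe1 was 0.01 ± 0.05 in HPC (adjusted p = 0.959) and -0.06 ± 0.04 in PFC (adjusted p = 0.624).

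Hspd1 followed the same pattern at a smaller size. Its medians were 2581 in PLX and 2910 in control libraries in HPC (-0.11 ± 0.04, 0.928-fold, adjusted p = 0.0306), and 2389 in PLX and 2705 in control libraries in PFC (-0.11 ± 0.04, 0.924-fold, adjusted p = 0.0243). Among the other libraries, the high-share ones left out, the medians were 2569 in PLX and 2600.4 in control libraries in HPC, and 2375 in PLX and 2437 in control libraries in PFC. The HPC call was lost without any 1 of MIA control M 04, MIA control M 06, saline PLX M 03, saline control F 05 and saline control M 05 (adjusted p = 0.0504 to 0.0594). With the term the difference was 0.00 ± 0.03 in HPC (adjusted p = 0.982) and 0.01 ± 0.04 in PFC (adjusted p = 0.966).

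Across all 10 genes, the high-share libraries were higher than the rest for 18 of the 20 gene and tissue pairs, and Hspe1 was the member furthest apart in HPC. The fitted difference of these libraries from the rest (log2) was 0.47 in HPC and 0.41 in PFC for Hspe1, 0.32 and 0.31 for Dnajb1, 0.25 and 0.24 for Hspd1, and 0.21 in both for Hspa8. Hspb1 was at 0.28 in HPC and 0.77 in PFC. Hspa1a was at -0.03 and Hspa1b at -0.02 in HPC, and both were near 0.29 and 0.28 in PFC. The median over all genes was 0.01 in HPC and 0.00 in PFC. What sets these libraries apart is not in the labels. In PFC only 1 of 6 saline control male libraries was left without them.

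Hspa1b was the member called higher in PLX. In PFC it had 157 to 499.5 in PLX libraries (median 275) and 150 to 438 in control libraries (median 214), which is 1.30-fold (0.38 ± 0.11, adjusted p = 0.00930). The groups overlapped widely, and the difference was positive in all 4 combinations of sex and prenatal treatment, from 0.25 in MIA females to 0.50 in MIA males. With the term the difference was 0.52 ± 0.13 (adjusted p = 0.0742), and without the high-share libraries 0.48 ± 0.16 (adjusted p = 0.171). The call was thus lost at a difference no smaller than before. In that last comparison the medians were 265 in 22 PLX libraries and 187 in 10 control libraries.

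In HPC Hspa1b had 237 to 653 in PLX libraries (median 297) and 179 to 488 in control libraries (median 263), a difference of 0.26 ± 0.11 that did not pass (adjusted p = 0.0597). It passed without any 1 of MIA PLX M 04, MIA control F 05, MIA control M 05, saline PLX F 06, saline PLX M 01, saline PLX M 03, saline control F 02, saline control F 03 and saline control M 04 (adjusted p = 0.0258 to 0.0498). The HPC and PFC differences were not told apart by a test of the difference between tissues (-0.12 ± 0.16, adjusted p = 1.00). Hspa1a was at 0.15 ± 0.12 in HPC (adjusted p = 0.307) and 0.17 ± 0.12 in PFC (adjusted p = 0.258). The ratio of Hspa1a to Hspa1b signal had a median of 0.544 in PLX and 0.653 in control libraries in PFC, and of 0.520 in PLX and 0.533 in control libraries in HPC.

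Hsph1, the HSP110 gene, also had positive differences in both tissues, which did not pass. In HPC it had 7680 to 12300.5 in PLX libraries (median 9723) and 7154 to 11202 in control libraries (median 9052; 0.09 ± 0.04, adjusted p = 0.112). In PFC it had 7680 to 11916 in PLX libraries (median 9749) and 7062 to 11091 in control libraries (median 9261; 0.11 ± 0.05, adjusted p = 0.0589). The PFC difference passed without any 1 of MIA PLX F 04, MIA PLX M 06, MIA control F 05, MIA control M 03, saline PLX M 03, saline control F 02, saline control M 02 and saline control M 04 (adjusted p = 0.0220 to 0.0460). Dnajb1 (-0.09 in both tissues), Hsp90aa1 (-0.05 in both), Hspa8 (-0.02 in both), Hspb1 (0.01 in HPC and -0.18 in PFC) and Bag3 (0.06 in HPC and -0.00 in PFC) did not pass.

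**Figure D3:**
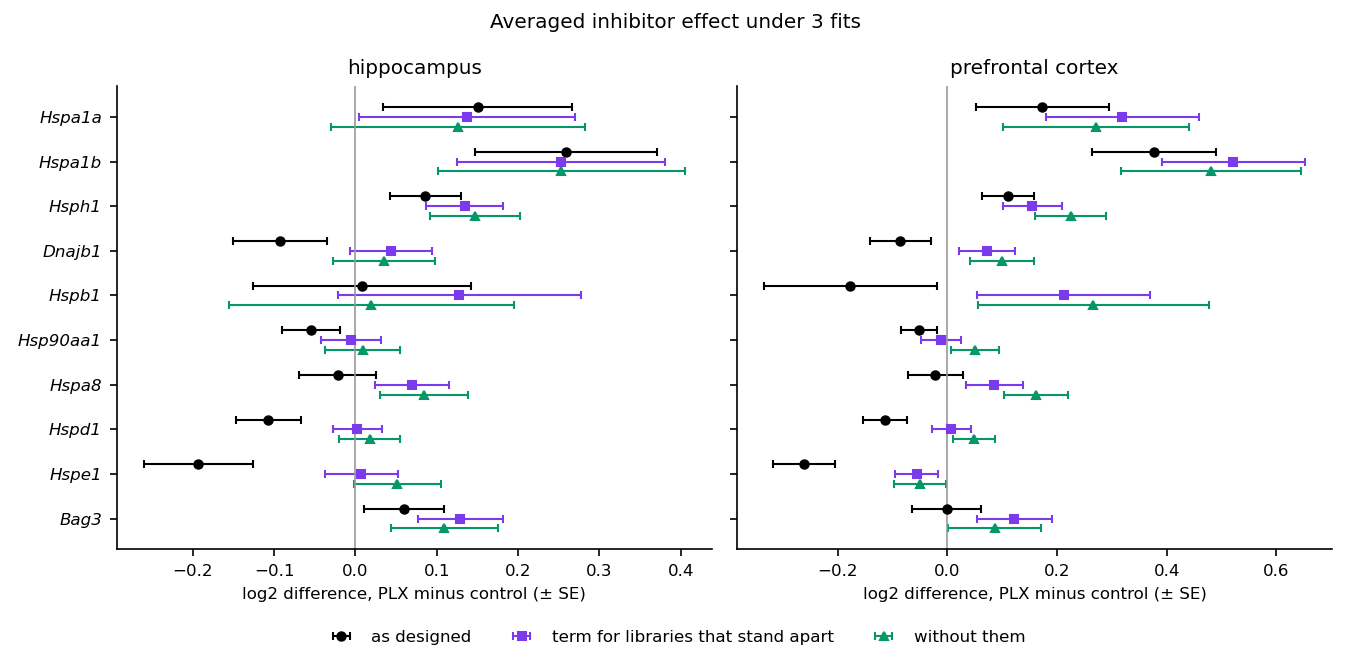
Averaged PLX minus control difference (x axis, log2, ± SE) of each gene (y axis) in HPC and PFC, from the fit as designed, with a term for the high-share libraries, and without them. Hspe1 and Hspd1 were near 0 with the term or without these libraries, while Hspa1b stayed between 0.25 and 0.52.

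Within single combinations of sex and prenatal treatment, 0 of the 10 genes were called for the inhibitor in any of the 8 comparisons by limma, and 0 by edgeR. At an unadjusted p under 0.05 limma had 0 to 3 of the 10 in each, and 1538 to 5632 of 19938 genes in HPC and 1505 to 5506 of 19841 genes in PFC. Few genes were called there at all. In HPC the shares of all genes called were 0.00502% in MIA females, 0.00502% in MIA males, 0.0301% in saline females and 0.0251% in saline males; in PFC they were 0.0252%, 0.0202%, 0.0252% and 0.338% in the same order. The widest member difference was that of Hspa1b in saline males in HPC, with 253 to 653 in PLX libraries (median 431) and 186 to 457 in control libraries (median 244; 0.60 ± 0.22, adjusted p = 0.192). The difference of Hspe1 was negative in all 8 comparisons, from -0.38 to -0.10. In MIA males in PFC the 6 PLX libraries had 339, 341, 362, 363, 373 and 380 (-0.38 ± 0.12, adjusted p = 0.141). The 5 control libraries had 366 and 374 in the pair that was not high-share and 523, 540.2 and 573 in the 3 that were. Without either library of that pair, MIA control M 02 or 05, Hspe1 was called (-0.46, adjusted p = 0.0462 and 0.0465). Without 05 Hspd1 was called too (-0.26 ± 0.09, adjusted p = 0.0480, against -0.20 ± 0.08 and adjusted p = 0.155 with it).

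**Figure D4:**
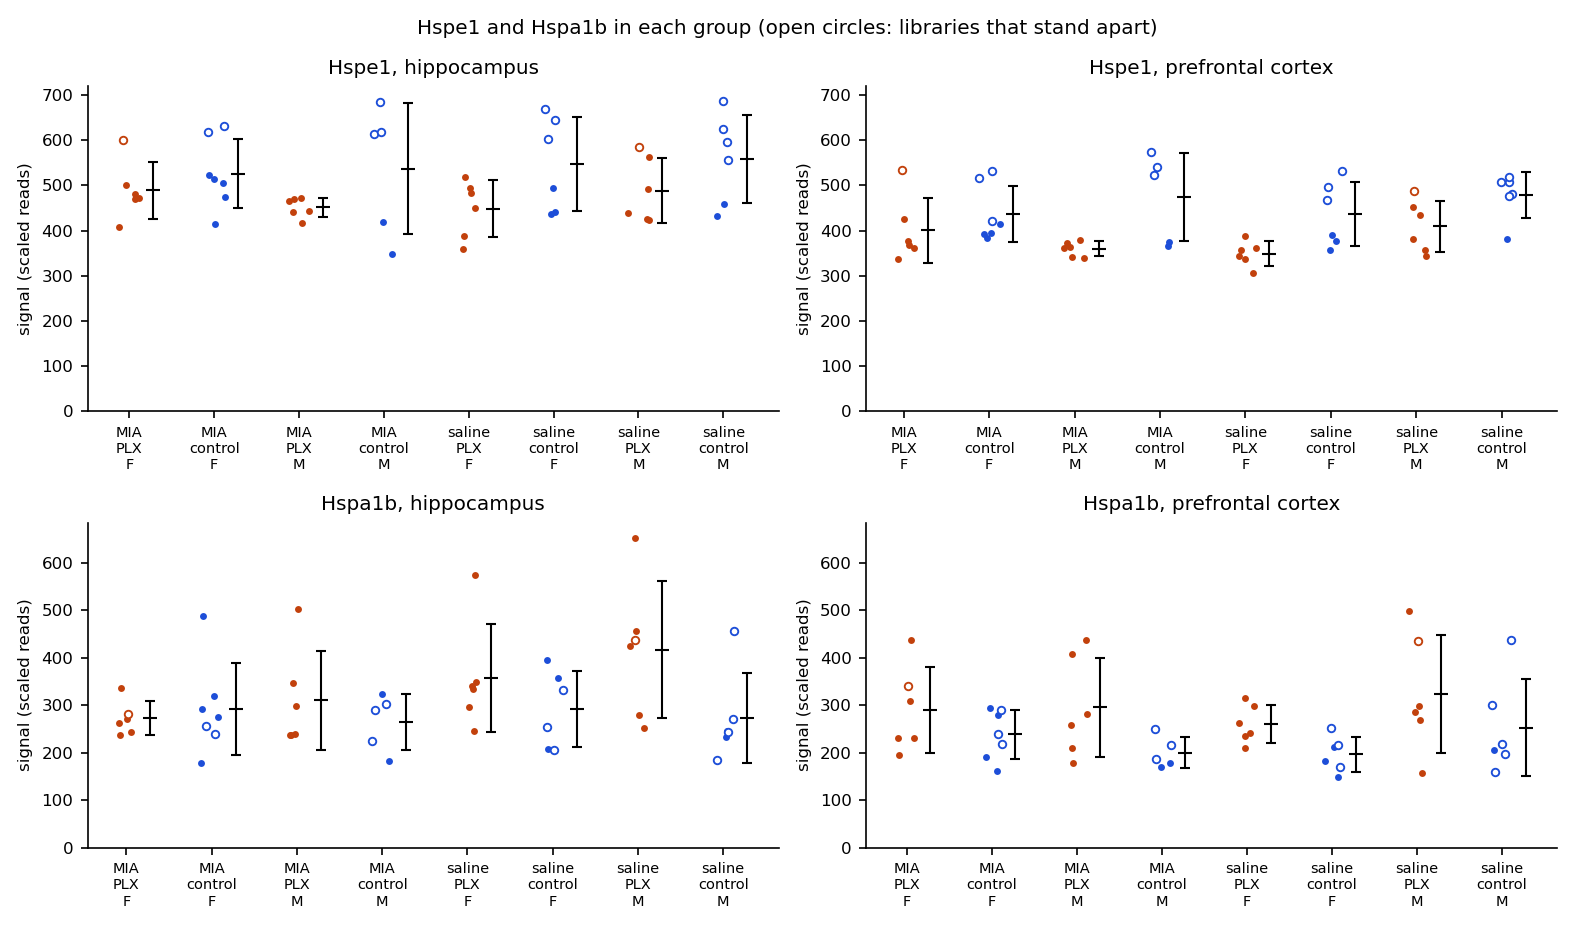
Signal of Hspe1 and Hspa1b (y axis, scaled reads, from 0) in the 8 groups of each tissue, with PLX in orange and control in blue (bars are mean ± SD; open circles are high-share libraries; 5 to 7 libraries per group). In control groups the high-share libraries lay above the others for Hspe1, by a narrow margin in PFC. Hspa1b varied most in saline PLX males, whose HPC libraries ran from 253 to 653.

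Group levels of Hspa1b ran in HPC, from low to high median, from 244 in saline control males, 267 in MIA PLX females and 269.5 in MIA PLX males to 276 in MIA control females, 289 in MIA control males, 293 in saline control females, 337 in saline PLX females and 431 in saline PLX males. In PFC they ran from 186 in MIA control males, 197 in saline control females and 212 in saline control males to 240.5 in MIA control females, 252 in saline PLX females, 269.8 in MIA PLX males, 270.4 in MIA PLX females and 292 in saline PLX males. The 4 PLX groups thus held the 4 highest medians in PFC, and 2 of them the highest in HPC. Neighbours in either order differed by less than their SDs, which ran from 32.9 to 144.

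For MIA minus saline, 0 of the 10 genes were called in any of the 8 comparisons within sex and inhibitor or in the average of either tissue. This was a comparison with almost no calls over all genes. The share called was 0.00502% in control females in HPC and 0 in each of the other 7 and in both averages. Averaged in HPC, Hspb1 was at -0.30 ± 0.13, Hspa1a at -0.22 ± 0.12 and Hspa1b at -0.20 ± 0.11 (adjusted p = 0.993 to 1.00), and the other 7 lay between -0.03 and 0.04. In PFC all 10 lay between -0.02 and 0.07. At an unadjusted p under 0.05 the averages had 949 genes in HPC and 1183 in PFC by limma, with 1 and 0 of the 10 genes among them, and the 8 single comparisons had 0 or 1 of the 10 and 475 to 1278 of all genes each. In all of these edgeR called 0 of the 10.

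The member furthest from 0 under MIA was Hspb1 in PLX males in HPC. It had 14.1, 23.5, 24.03, 26.5, 32.6 and 38.1 in MIA PLX males and 26.3, 40.3, 44.6, 54.6, 59.8 and 77.1 in saline PLX males (-0.89 ± 0.27, unadjusted p = 0.00176 by limma over all 8 groups, adjusted p = 1.00). The groups overlapped only through the lowest saline library. The saline value of 77.1 came from a high-share library, of which there was 1 among the 6 saline PLX males and 0 among the 6 MIA PLX males. The difference did not pass over all genes, and at these levels counting error is large. In PFC the same comparison of Hspb1 gave -0.27. The MIA by PLX interaction was called for 0 of the 10 genes in females or males of either tissue, and for 0% of all genes; at an unadjusted p under 0.05 limma had 0 of the 10 in females of either tissue, 2 in HPC males and 1 in PFC males, and edgeR called 0. Over all genes that cut held 570 and 425 of 19938 in HPC females and males, and 612 and 797 of 19841 in PFC females and males.

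For sex, females minus males, 0 of the 10 genes were called by limma or edgeR, in comparisons that called 0.246% of all genes in HPC and 0.141% in PFC. At an unadjusted p under 0.05 limma had 2 of the 10 in HPC, where it had 1566 of 19938 genes, and 1 in PFC, where it had 1200 of 19841 genes. Dnajb1 had a negative difference in both tissues that did not pass. It had 989 to 1458 in 25 females (median 1167) and 972 to 1745 in 23 males (median 1269) in HPC (-0.16 ± 0.06, adjusted p = 0.426). In PFC it had 1238 to 2012 in females (median 1478) and 1298 to 2230 in males (median 1700.4; -0.16 ± 0.06, adjusted p = 0.541). Without the high-share libraries these differences were -0.09 and -0.04. The sex difference of the inhibitor effect was called for 0 of the 10 genes and 0% of all genes in both tissues, and the sex difference of the MIA effect for 0 of the 10 genes and 0.00502% of all genes in HPC and 0% in PFC. The tissue differences of the averaged PLX and MIA effects were called for 0 of the 10 genes and 0% of all genes. In these last comparisons limma had 0 of the 10 at an unadjusted p under 0.05 too, and edgeR called 0. Over all genes that cut held few as well. For the sex difference of the inhibitor effect it held 984 of 19938 genes in HPC and 900 of 19841 in PFC. For that of the MIA effect it held 814 and 474. For the tissue differences of the PLX and MIA effects it held 550 and 440 of 20620 genes.

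Within groups the 10 genes varied together from library to library. Of their 45 pairs, 43 had a positive r in HPC and 45 in PFC (log2 values centred within each group, 48 libraries each), with a median r of 0.41 and 0.55, against a mean of 0.00 over all pairs of genes. With the high-share state centred as well, 42 of the 45 pairs were positive in each tissue, and the median r was 0.36 in HPC and 0.40 in PFC. The share of positive pairs over all genes was not computed. These correlations share libraries and scaling, and are a description. The closest pairs were Hspd1 with Hspe1 (0.87 in HPC and 0.83 in PFC), Hspa1a with Hspa1b (0.85 in both) and Hsph1 with Hspa8 (0.80 and 0.79). Centred within the high-share libraries as well, Hspd1 with Hspe1 had 0.68 in HPC and 0.64 in PFC, Hspa1a with Hspa1b 0.86 and 0.85, and Hsph1 with Hspa8 0.79 and 0.77. Hsp90aa1 with the mitochondrial Hspd1 was then at 0.79 in HPC and 0.82 in PFC (0.78 and 0.76 before), above Hspd1 with Hspe1, so the order of the closest pairs depends on the high-share libraries. The inducible pair Hspa1a and Hspa1b was close to 0 with Hsp90aa1 (-0.13 and 0.00) and with Hspe1 (-0.06 and 0.04) in HPC. In HPC the inducible HSP70 genes and Hsp90aa1 thus had an r near 0.

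**Figure D5:**
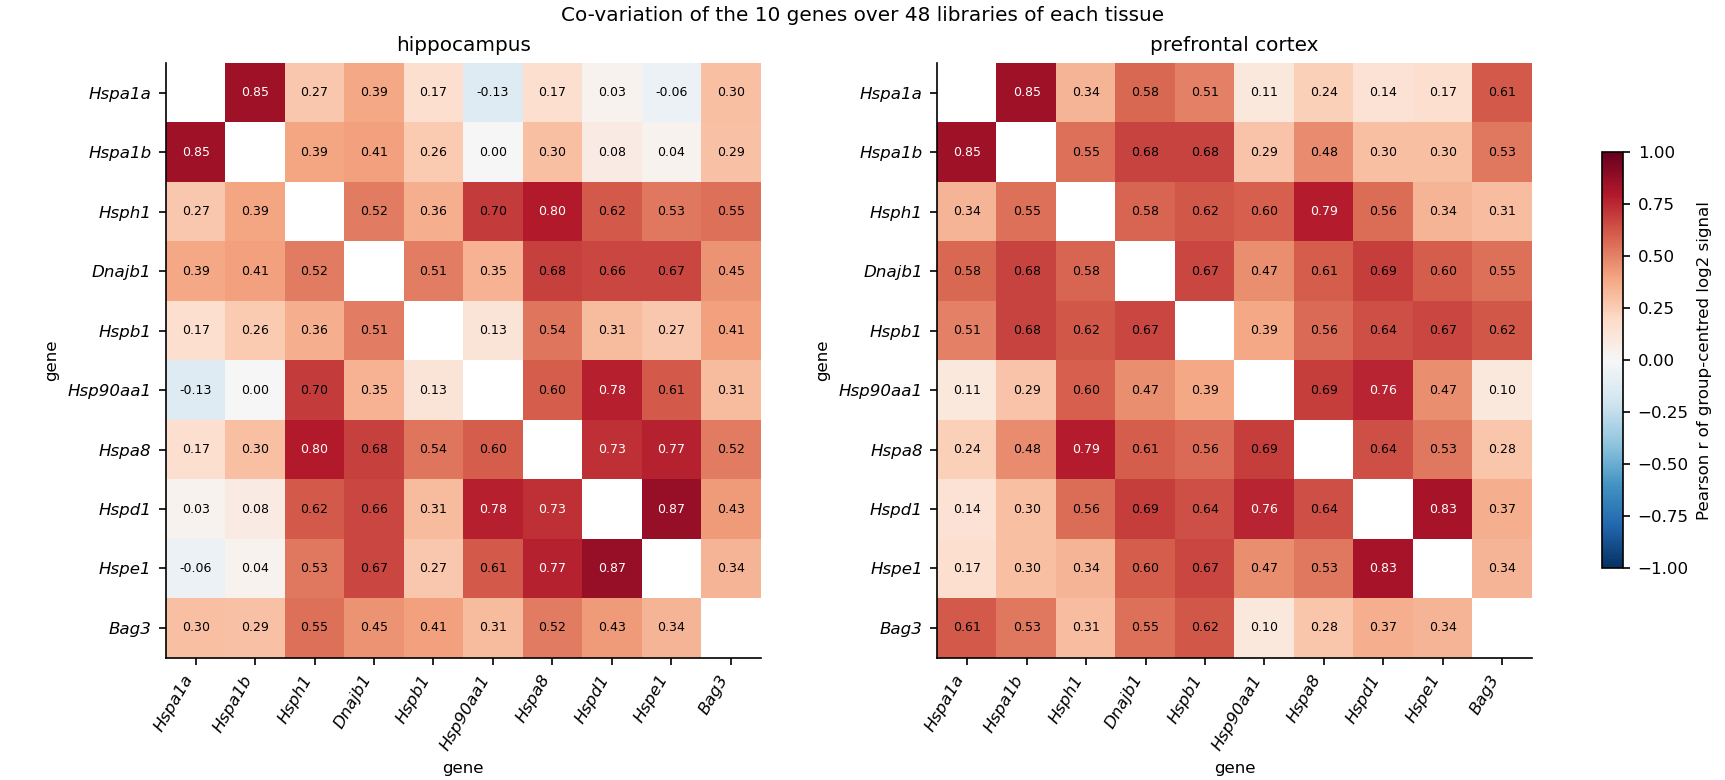
Pearson's r between the 10 genes (both axes) over 48 libraries of each tissue, from log2 signal centred within each group; colour runs from -1 to 1 and the number is r. Hspa1a with Hspa1b, Hspd1 with Hspe1, and Hsph1 with Hspa8 were the closest pairs in both tissues, and Hspa1a and Hspa1b were near 0 with Hsp90aa1 in HPC.

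Read assignment limits how far near copies can be told apart. The Hspa1a and Hspa1b transcripts of GENCODE had the same base at 99.3% of 2197 aligned positions, so reads may be split between them or counted for neither, and their r cannot be told apart from shared reads. The table also lists Hspd1-ps3, whose transcript was 99.0% identical to Hspd1, at a median of 67.2% of the Hspd1 signal in HPC and 69.4% in PFC. The level of Hspd1 is therefore uncertain, and by how much was not tested.

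The genes outside the list whose levels followed the mean of Hspa1a, Hspa1b, Dnajb1 and Hsph1 most closely were Klhl26 (r = 0.76), Pcbp1 (0.75), Dedd2 (0.75), Rex1bd (0.75) and Abhd8 (0.73) in HPC, and Zfp444 (0.85), Gm1673 (0.84), Fscn1 (0.84), Wnt10a (0.83) and Trir (0.83) in PFC, over 48 group-centred libraries each. That mean itself mostly followed Hspa1b (r = 0.93 in HPC and 0.96 in PFC) and Hspa1a (0.91 in both). Its r was 0.63 and 0.78 with Dnajb1, and 0.55 and 0.63 with Hsph1, lower than with the genes just named. With the high-share state centred as well, Klhl26 (0.77) was still among the top 5 in HPC and Zfp444 (0.85) in PFC. Snx3, named after its values were seen, then came first of the genes outside the list in both tissues (0.82 in HPC and 0.85 in PFC).

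Other genes of protein folding give the setting of the inhibitor comparison. In the list of the cytosolic chaperonin TRiC, which folds actin and tubulin, 7 of 8 subunit genes were lower in PLX in HPC and 6 of 8 in PFC, with 0 higher in both. Examples are Cct7 (-0.20 ± 0.05 in both tissues), Cct2 (-0.13 ± 0.03 in HPC and -0.12 ± 0.04 in PFC) and Tcp1 (-0.13 ± 0.03 and -0.12 ± 0.03). Of 12 genes of mitochondrial folding and proteolysis, 5 were lower in each tissue and 0 higher. These included Grpel1, the nucleotide exchange factor of mitochondrial HSP70 (-0.23 ± 0.05 in HPC and -0.21 ± 0.05 in PFC), and the protease subunit Clpp (-0.21 ± 0.05 and -0.25 ± 0.06). Over all genes 20.8% were higher and 19.2% lower in HPC, and 19.7% and 18.1% in PFC. Against these shares both lists lay to the lower side, at medians of -0.13 and -0.06 in HPC and -0.12 and -0.06 in PFC. With the term for the high-share libraries 0 of the genes in either list were called in either tissue, and the medians were -0.03 and -0.01 in HPC and -0.00 and 0.00 in PFC.

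The lists closest to the inducible members moved in both directions, as did all genes. Of those 20.8% were higher and 19.2% lower in HPC, and 19.7% and 18.1% in PFC. Among 16 other genes of the HSP70 family and its exchange factors 2 were higher and 5 lower in HPC, and 4 higher and 4 lower in PFC. The 5 lower in HPC included Hspa9 (-0.10 ± 0.03), which encodes mitochondrial HSP70 and was counted in the mitochondrial list too. Hspa4l, an HSP110 relative, was higher (0.18 ± 0.05 in HPC and 0.24 ± 0.05 in PFC) and Bag1 lower (-0.20 ± 0.05 and -0.23 ± 0.05). Among 18 J proteins 4 were higher and 6 lower in HPC, and 5 and 7 in PFC. Among 18 genes of HSP90 and its co-chaperones 3 were higher and 6 lower in HPC, and 4 and 2 in PFC. There Chordc1, a heat-inducible HSP90 co-chaperone, was higher (0.16 ± 0.05 and 0.17 ± 0.05) and Cdc37, which brings kinases to HSP90, lower (-0.15 ± 0.04 and -0.16 ± 0.05). Of the 6 genes around HSF1, 1 was called in each tissue, Hsbp1, a binding partner of HSF1 (-0.18 ± 0.05 and -0.19 ± 0.04). In the list of small heat shock proteins 1 of 6 tested genes was called in HPC, Hspb3 (-0.51 ± 0.14). In PFC 1 of 7 was called, Hspb11 (-0.20 ± 0.06), which was listed by its symbol only. Of 3 RNA-binding proteins linked to temperature, Cirbp was lower (-0.32 ± 0.06 and -0.33 ± 0.07). In these lists too 0 genes were called in either tissue once the term was in the fit or those libraries were left out.

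Immediate early genes, which follow neuronal activity and handling, were lower for 7 of 14 in HPC and 4 of 14 in PFC, with 0 higher. Over all genes 19.2% were lower and 20.8% higher in HPC, and 18.1% and 19.7% in PFC. Nr4a1 (-0.46 ± 0.12 and -0.35 ± 0.12) and Dusp1 (-0.41 ± 0.12 and -0.33 ± 0.11) were called in both. With the term, or without the high-share libraries, 0 of the 14 were called in either tissue, with list medians of -0.35 and -0.36 in HPC (-0.36 in the fit as designed) and -0.28 and -0.20 in PFC (-0.29 as designed). The summed signal of the list ran from 10033 to 19373 in PLX and 8565 to 31243 in control libraries in HPC, and from 12526 to 35714 in PLX and 12985 to 44455 in control libraries in PFC. Of 6 microglial markers 5 were lower in each tissue, with sums of 6148 to 7486 in PLX and 6412 to 9886 in control libraries in HPC. In PFC these sums were 5779.6 to 7199.8 in PLX and 6543 to 9225 in control libraries. With the term 2 of the 6 were lower in HPC and 3 in PFC, and without the high-share libraries 0 and 3. Over all genes the term left 0.376% called in HPC and 0.242% in PFC, and leaving the libraries out 0.0457% and 0.302%. All 3 markers of oligodendrocyte precursors were higher in PLX in PFC and 2 of 3 in HPC, and 0 in either tissue with the term or without the high-share libraries. Choroid plexus markers summed to a median of 3125 in PLX and 7970.1 in control libraries in HPC. The part of these lists in the member differences was not tested.

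Between tissues the same lists differed in both directions. In that comparison 35.3% of all genes tested were called higher in HPC and 30.6% lower. Of 14 immediate early genes 12 were lower and 2 higher in HPC (Egr1 -1.46 ± 0.09, Jun 1.06 ± 0.05). Of the 12 genes of mitochondrial folding, the set of Hspd1 and Hspe1, 7 were higher and 1 lower. Among the HSP70 genes and exchange factors 4 were higher, led by Hspa2 (0.65 ± 0.03), and 8 lower. Among the genes around HSF1, Hsf4 was lower (-0.69 ± 0.04) and Hsf1 higher (0.16 ± 0.03) in HPC. All 6 neuronal markers were lower and all 5 oligodendrocyte markers higher in HPC, and choroid plexus markers were higher for 4 of 5. The part of cell makeup in the member differences was not tested.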

How the data were processed

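Bulk RNA-seq was made from 96 mouse libraries, with a stranded mRNA kit per the labels' protocols. The submitters' processing notes name Trimmomatic, STAR 2.6.1d and the build GRCm39. A counting tool was not given in the sources used here. What the authors deposited is a normalized signal, which is the read count of a gene divided by 1 factor per library, scaled within each tissue. Multiplied by that factor, 99.987% to 100.0% of the values in each of the 96 columns were whole (tolerance 1e-05); where a factor was close to 1 this is a weak check. On these reads edgeR called 7891 genes for PLX in HPC, 7425 in PFC and 13598 between tissues. The signal was tested as log2(signal + 1) with limma 3.58.1 (trend), all 8 groups of a tissue in 1 fit, and all 16 groups for differences between tissues. The filter kept genes that reached a signal of 10 in 5 or more libraries, and p-values were adjusted by Benjamini-Hochberg over all genes kept (threshold 0.05), in each of 33 comparisons. Fold changes are on the log2(signal + 1) scale and understate those of low genes. Alternatives were edgeR 4.0.16 (quasi-likelihood) on the recovered reads, a pseudocount of 8, no filter, TMM rescaling, a term for the high-share libraries, leaving them out, a replicate block and leaving out each label in turn. Scripts were tested on simulated data. The members were given by symbol. Other genes were named by likeness to the mean of 4 members, or as called members of lists (at most 4 a list and comparison). The members and lists were chosen with earlier results of these data known.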

Additional observations from a re-analysis of the deposited data

Results flagged for a closer look

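In each group of 5 to 7 libraries the highest and lowest value of each gene was compared with the others (Dixon's ratio at the 95% level). Of 160 gene and group pairs 10 stood out, and chance gives about 1 in 20. Hspa1a and Hspa1b, the inducible HSP70 genes, stood out in the same HPC library, saline PLX F 01: Hspa1a had 340 there against 146 to 192 in the rest of its group, and Hspa1b had 575 against 245 to 350. Hspa1b had 457 in saline control M 04 in HPC, where the rest of the group had 186 to 270. Hsp90aa1 stood out in 3 libraries, with 12551 in MIA control F 03 in HPC (others 9516 to 10679), 8301 in saline control F 03 in HPC (others 9976 to 10699) and 8589 in saline PLX M 03 in PFC (others 10423 to 11415). In PFC Hsph1 had 10811 in saline PLX F 02 (others 9086 to 9279), Hspa8 had 9435 in saline PLX F 06 (others 11361 to 12329), Hspb1 had 11.1 in MIA PLX M 06 (others 32.4 to 38.5) and Hspe1 had 381 in saline control M 06 (others 476 to 519). That last library was the only 1 of its group of 6 that was not high-share, and its value lay within the 358 to 415 of the 10 control libraries of PFC that were not.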

How the results depend on the processing

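Of the 33 counts of members called, the inhibitor averages depended on the high-share libraries: with a term for them or without them the count was 0 in HPC and 0 in PFC, and 0 in PFC with a term for the 14 hippocampal labels, an alternative chosen after seeing the data. Leaving out 1 label at a time gave 1 to 3 members in HPC, 3 to 4 in PFC, 5 to 7 between tissues and 0 to 2 for PLX in MIA males in PFC. Several log2 differences changed sign, and the cause was not tested. For PLX in HPC these were, with the term and then without the libraries, Dnajb1 (0.0433 and 0.0353), Hspa8 (0.0698 and 0.0845), Hspd1 (0.0024 and 0.018) and Hspe1 (0.0073 and 0.0517), and Hsp90aa1 without them (0.0088). Hspb1 in HPC was at -0.0079 with edgeR, -0.0024 with TMM rescaling and -0.013 with the replicate block. For PLX in PFC they were, with the term, without the libraries and with the hippocampal labels, Dnajb1 (0.0723, 0.099 and 0.0417), Hspb1 (0.21, 0.27 and 0.14), Hspa8 (0.0857, 0.16 and 0.0451) and Bag3 (0.12, 0.086 and 0.0807). Hspd1 was at 0.0073 with the term and 0.048 without the libraries, Hsp90aa1 at 0.0497 without them, and Bag3 at 0.0022 with edgeR. Between tissues Hspb1 was at 0.16, 0.22 and 0.12 in the same order, and Hsph1 at 0.013 without the libraries. Without 1 label the PLX difference ran from -0.041 to 0.0498 for Hspb1 in HPC and from -0.018 to 0.016 for Bag3 in PFC, and the tissue difference from -0.0092 to 0.00024 for Hsph1 and from -0.037 to 0.021 for Hspb1. Numbers shared between groups did not pair libraries: 49 of 161 pairs in HPC and 45 of 161 in PFC had a correlation of deviations over 0.1. Libraries of the same label in both tissues had one in 42 of 48, and 38 of 48 correlated best with their own label. The replicate block changed 1 member call, Hsp90aa1 between tissues (adjusted p = 0.0014), which TMM rescaling also called (adjusted p = 0.0331). The low read numbers of Hspb1 limit what could be detected for it.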
